A study of Homo sapiens with 6 samples.

Results

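Zinc transport in human cells is the work of SLC30 proteins, which move zinc out of the cytosol, and SLC39 proteins, which move it in. The genes described here were SLC30A1, SLC30A5, SLC30A10, SLC39A1, SLC39A4, SLC39A5, SLC39A6, SLC39A8, SLC39A10 and SLC39A14. They are 10 of the 24 genes of both families looked up among the 57500 genes counted. They were chosen by their family and with their measured counts in these same libraries known. Their differences between the groups are therefore given as a description, with no p-value printed for any of them. Whether each passed the threshold of the fit across all genes is stated, but is not read as a test of it. RNA was sequenced from wild-type HepG2 cells, an established human hepatocellular carcinoma line, after 24 h with vehicle or with 10 mM glycine, and there were 3 libraries per group. The groups shared genotype, cell line and time in treatment, and glycine was the only stated difference between them. The vehicle group was not free of glycine, because the standard medium used by the study already holds it. Biological replicates were defined by the study as experiments run on separate days, all with this 1 line. For its cell-based assays in general, the study states that every run held both control and treated samples. No label ties a replicate number to a day, so the main fit has no pairing. A fit with the replicate number as a block is given at the end.

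Zinc is a structural and catalytic part of many enzymes and transcription factors, and little of it is free in the cytosol. Metallothioneins bind it, and the zinc-sensing factor MTF1 switches on metallothionein genes and the exporter gene SLC30A1 through short metal response elements in their promoters. The liver is a main site where zinc is taken up from blood, in which SLC39A14 has a large part, and several of these carriers also move manganese, iron or cadmium. In bulk RNA, fewer cells that express a gene and less RNA per cell cannot be told apart.

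The libraries held 31795489 to 58815986 counts, so that 1 count was worth 0.0170 to 0.0315 CPM (read counts divided by the library size, itself adjusted for composition). Reads carried no molecular identifiers, and such limits cover counting error only. Every gene of an 8-gene hepatocyte list was well expressed, the lowest being TTR at 97.6 to 139 CPM. The list summed to 29458 to 33515 CPM with vehicle and 25295 to 28979 CPM with glycine, and 2 of its genes, APOA1 and TTR, fell (edgeR adjusted p under 0.05). A list of 10 leukocyte, endothelial and fibroblast markers summed to 2159 to 2364 CPM with vehicle and 1718 to 1878 CPM with glycine, nearly all of it LYZ. Of that list 2 genes rose, CD68 and COL1A1, and 3 fell, LYZ, VWF and PDGFRB, beside 6.71% and 6.54% of all tested genes. The lowest of the list, PTPRC, DCN and COL1A2, were too low to test. They were at or below 0.0860, 0.0313 and 0.171 CPM in every library. Others were counted at higher levels. PDGFRB reached 28.96 CPM, COL1A1 5.02 CPM and CD68 2.22 CPM. Of the endothelial genes, PECAM1 was at 3.64 CPM or more in every library, and CDH5 and VWF were at or below 0.783 and 0.695 CPM. The part of these marker shifts in the zinc transporter values was not tested.

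Levels were compared between genes as CPM per kb of exon. In the vehicle libraries SLC39A14 stood at 144 ± 9.37 (SD, n = 3) CPM per kb, above 98.4% of the 15492 genes tested. SLC39A7, an importer of the endoplasmic reticulum outside the 10, was next at 136 CPM per kb, and the ranges of these neighbours overlapped. SLC39A4 followed at 49.1 ± 3.00, SLC39A1 at 37.2 ± 2.53, SLC39A5 at 25.2 ± 1.74, SLC30A1 at 17.8 ± 1.02 and SLC39A6 at 15.8 ± 0.476 CPM per kb (SD, n = 3 each). No neighbouring pair among these overlapped in the 3 vehicle libraries. SLC30A5 was at 8.31 ± 0.134 CPM per kb, and its range overlapped that of its partner gene SLC30A6. SLC39A10 at 2.16 ± 0.252 and SLC30A10 at 2.03 ± 0.131 CPM per kb also overlapped, and SLC39A8 was lowest of the 19 tested family genes at 0.130 ± 0.0369 CPM per kb. Importer transcripts were therefore the more abundant set, with summed SLC39 to summed SLC30 levels in a ratio of 9.15 ± 0.379 (SD, n = 3) with vehicle. Without division by exon length some neighbours changed places, such as SLC30A1 and SLC39A5.

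**Figure D1:**
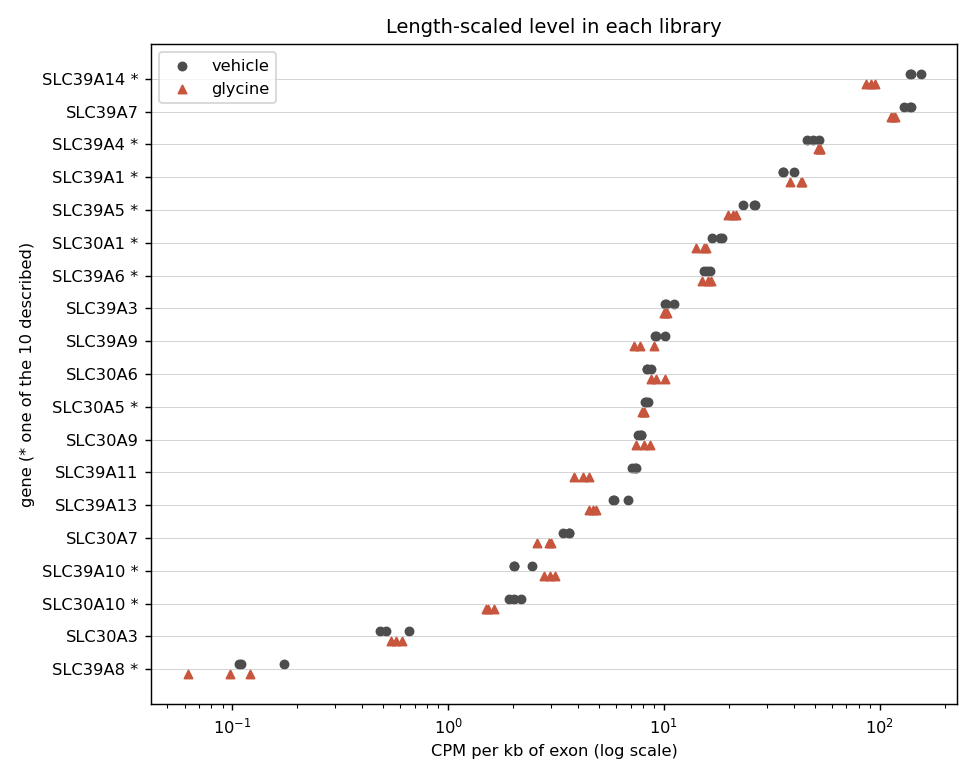
Levels of the 19 tested SLC30 and SLC39 genes in each library, in CPM per kb of exon on a log axis, with vehicle libraries as dark circles and glycine libraries as orange triangles. The genes are ordered by their vehicle mean, from SLC39A14 at 144 CPM per kb to SLC39A8 at 0.130 CPM per kb, and asterisks mark the 10 genes described.

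Glycine was compared with vehicle to ask what supplementation does to the transcriptome of these cells. Of the 10 genes, SLC39A10 was higher with glycine past the threshold of the fit across all genes, and SLC30A1, SLC30A10, SLC39A5 and SLC39A14 were lower. That is 1 higher and 4 lower, where 6.71% of all tested genes were called higher and 6.54% lower (edgeR quasi-likelihood test, two-sided, adjusted p under 0.05). Because the genes were chosen with this contrast known, nothing is read from the counts. By non-overlap of the 3 glycine and 3 vehicle libraries, 1 gene lay wholly above and 5 wholly below, beside 17.2% and 14.4% of all tested genes. The remaining 4, SLC39A1, SLC39A4, SLC39A6 and SLC39A8, overlapped. The median log2 change of the 10 genes was -0.14, with a range from -0.67 to 0.45, and that of all tested genes was 0.00. Leaving out a library took SLC30A1 off the called genes in 4 of 6 fits, those without vehicle replicate 1 or 2 or glycine replicate 1 or 2, while its log2 change stayed between -0.29 and -0.19 over the 6 fits. SLC39A5 was lost in 2 of 6, without glycine replicate 1 or 3, with a log2 change between -0.35 and -0.25 over the 6 fits. This left 2 genes called lower without glycine replicate 1. SLC30A1 was also not called in the fit with the replicate number as a block.

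**Figure D2:**
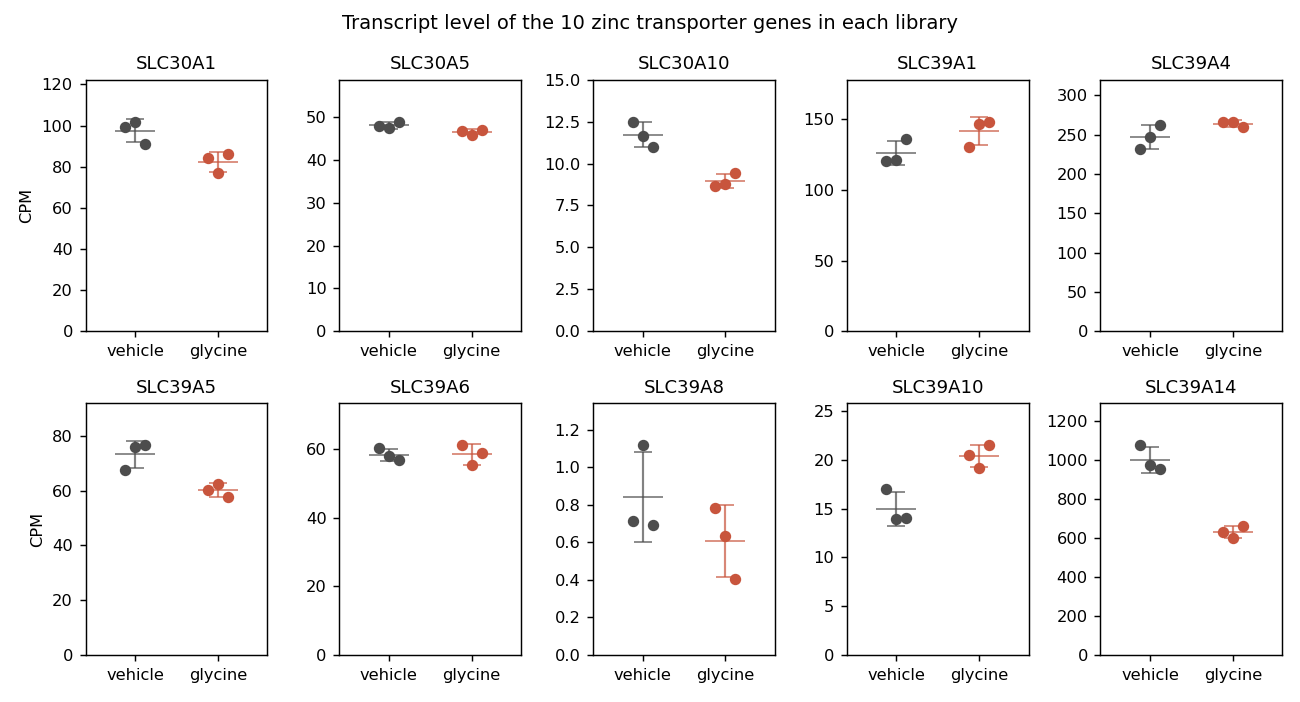
CPM of each of the 10 genes in the 3 vehicle (dark) and 3 glycine (orange) libraries, with the mean and SD as lines, each axis starting at 0. SLC39A14 falls from about 1001 to 631 CPM between the group means, SLC39A10 lies at 13.9 to 17.0 CPM with vehicle and 19.2 to 21.5 CPM with glycine, and the SLC39A6 groups overlap.

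SLC30A1 is the zinc exporter of the plasma membrane and a classical target of MTF1. Its gene (ENSG00000170385) lies on the minus strand of chromosome 1, from 211571568 to 211578742 in GRCh38. It was counted at 99.1, 102 and 91.2 CPM in the vehicle libraries and at 84.1, 76.9 and 86.1 CPM in the glycine libraries. All glycine libraries were below all vehicle libraries. The means were 97.4 ± 5.57 and 82.4 ± 4.84 CPM (SD, n = 3), a log2 change of -0.24 ± 0.0684 (SE, 95% interval -0.39 to -0.09).

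The SLC30A1 promoter is shown because MTF1 is known to act there. The window runs from 250 bases before to 50 after the RefSeq start (GRCh38.p14, chr1:211579112-211579411, minus strand, printed 5′ to 3′ along the gene), and capitals mark matches to the metal response element core.
SLC30A1: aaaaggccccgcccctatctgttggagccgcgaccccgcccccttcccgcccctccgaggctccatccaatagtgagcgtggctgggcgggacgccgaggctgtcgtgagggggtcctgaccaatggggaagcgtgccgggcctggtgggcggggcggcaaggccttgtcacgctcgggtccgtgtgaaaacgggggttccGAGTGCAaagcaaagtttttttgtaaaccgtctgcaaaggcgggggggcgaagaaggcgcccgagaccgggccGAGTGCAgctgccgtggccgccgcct
The letters searched were TGCGCNC and TGCACNC on both strands, and the capitals here read as the core on the opposite strand. This window held 2 matches. Of all 35116 such windows, 29.6% held at least 1 match and 8.60% at least 2. Windows were found for 8 of the 10 genes, 14 windows in all, and 6 of these (42.9%) held a match. SLC39A1, SLC39A5, SLC39A6, SLC39A8 and SLC39A10 had 1 match each, in 1 of their 1 to 3 windows, and SLC30A5 and SLC30A10 had none. Windows were found for 4 metallothionein genes and held 3 to 8 matches each, with 4 in MT1X and 8 in MT2A. A match describes letters in a window and is no evidence of a bound site.

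SLC30A5 works in the early secretory pathway, where it forms a heteromer with SLC30A6 and supplies zinc to enzymes such as alkaline phosphatases. The gene (ENSG00000145740, chromosome 5, 69093646 to 69131069, plus strand) shares 9.20% of its exon length with a gene on the other strand. It was at 47.9, 47.4 and 48.9 CPM with vehicle and 46.7, 45.9 and 46.9 CPM with glycine. The groups did not overlap, yet the mean fell by 3.19% (log2 change -0.05 ± 0.0602, SE, 95% interval -0.18 to 0.08). The difference was no larger than its error.

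SLC30A10 belongs to the same family by sequence but is known as a manganese exporter of liver and bile, whose loss causes manganese overload. The gene (ENSG00000196660, chromosome 1, 219685427 to 219958647, minus strand) was at 12.5, 11.7 and 11.0 CPM with vehicle. With glycine it was at 8.68, 8.80 and 9.43 CPM. Every glycine library was below every vehicle library, and the means of 11.7 ± 0.759 and 8.97 ± 0.403 CPM (SD, n = 3) gave a log2 change of -0.39 ± 0.0885 (SE, 95% interval -0.58 to -0.19). Of the 3 exporter genes described it changed most in proportion.

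SLC39A10 and SLC39A6 encode plasma membrane importers of 1 subfamily that are known to form a heteromer. SLC39A10 transcription is known to be repressed by MTF1 when zinc is plentiful. The SLC39A10 gene (ENSG00000196950, chromosome 2, 195575977 to 195737702, plus strand) was at 17.0, 13.9 and 14.0 CPM with vehicle and 20.6, 19.2 and 21.5 CPM with glycine. The groups were apart, although vehicle replicate 1 lay nearest to the glycine libraries. The glycine mean of 20.4 ± 1.17 CPM (SD, n = 3) was 36.4% above the vehicle mean, around which the vehicle libraries had an SD of 1.75 CPM (n = 3), and this was a log2 change of 0.45 ± 0.0910 (SE, 95% interval 0.25 to 0.64), the largest rise among the 19 tested family genes. Its partner SLC39A6 (ENSG00000141424, chromosome 18, 36108532 to 36129385, minus strand) was at 60.1, 58.1 and 56.7 CPM with vehicle and 61.1, 55.2 and 58.9 CPM with glycine. These values overlapped, and the log2 change was 0.00 ± 0.0644 (SE, 95% interval -0.14 to 0.14).

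Of 2 windows found for SLC39A10, at different RefSeq starts, 1 held no match and the other is shown beside that of SLC30A1 because both genes are known to answer to MTF1, in opposite directions, and both are among the genes described (GRCh38.p14, chr2:195656976-195657275, plus strand, capitals as before).
SLC39A10: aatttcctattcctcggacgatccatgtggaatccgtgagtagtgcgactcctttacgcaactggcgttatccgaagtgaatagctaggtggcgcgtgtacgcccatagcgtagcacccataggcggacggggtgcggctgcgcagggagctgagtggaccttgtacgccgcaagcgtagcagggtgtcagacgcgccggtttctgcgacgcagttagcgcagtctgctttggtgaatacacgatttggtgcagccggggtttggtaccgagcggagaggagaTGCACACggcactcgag
It held 1 match, on the plus strand, starting 33 bases after the first transcribed base of that RefSeq start. In SLC30A1 the matches started 49 bases before and 24 bases after the RefSeq start. These RefSeq starts differ from the ends of the counted genes. The SLC30A1 window lies wholly upstream of the counted gene, whose 5′ end is at 211578742. The SLC39A10 window lies within the span of the counted gene, which begins at 195575977.

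SLC39A1 is a broadly expressed importer of the plasma membrane. The gene (ENSG00000143570, chromosome 1, 153959099 to 153968184, minus strand) shares 8.26% of its exon length with CREB3L4 on the other strand. It was at 121, 121 and 136 CPM with vehicle and 131, 146 and 148 CPM with glycine. The lowest glycine library lay inside the vehicle range, and the log2 change was 0.17 ± 0.0719 (SE, unadjusted 95% interval 0.02 to 0.33). SLC39A1 did not pass the threshold of the fit across all genes.

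SLC39A14 imports zinc into hepatocytes, carries manganese and non-transferrin-bound iron too, and is known to be induced by interleukin-6. The gene (ENSG00000104635, chromosome 8, 22367249 to 22434129, plus strand) was the most abundant of the 10. It was at 1076, 974 and 955 CPM with vehicle and 633, 599 and 663 CPM with glycine. The lowest vehicle library was well above the highest glycine library. The means of 1001 ± 65.0 and 631 ± 31.8 CPM (SD, n = 3) differed by a log2 change of -0.67 ± 0.0758 (SE, 95% interval -0.83 to -0.50), the largest fall of the 10. SLC39A8, its close relative with a like range of metals, was barely counted, at 25, 39 and 25 counts with vehicle and 25, 37 and 17 with glycine. In CPM these were 0.714, 1.12 and 0.695 against 0.783, 0.632 and 0.403, so the groups overlapped. Its log2 change of -0.49 ± 0.292 had a 95% interval from -1.12 to 0.14, and a difference was not detectable at this depth. That gene (ENSG00000138821) lies on chromosome 4, from 102251041 to 102431258 on the minus strand.

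SLC39A4 is the importer for dietary zinc in the intestine, and its loss causes acrodermatitis enteropathica. It (ENSG00000147804, chromosome 8, 144409742 to 144416895, minus strand) was at 232, 247 and 263 CPM with vehicle and 267, 266 and 260 CPM with glycine. The lowest glycine library fell below the highest vehicle library, and the log2 change was 0.09 ± 0.0650 (SE, 95% interval -0.05 to 0.23). SLC39A5 sits at the basolateral side of polarised epithelia. The gene (ENSG00000139540, chromosome 12, 56230049 to 56237846, plus strand) was at 67.5, 75.8 and 76.6 CPM with vehicle and 60.3, 62.6 and 57.8 CPM with glycine. The groups did not overlap, and the log2 change was -0.28 ± 0.0687 (SE, 95% interval -0.43 to -0.13).

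The composition of the importer transcripts differed accordingly. Summed over the SLC39 family, levels were 449, 432 and 448 CPM per kb with vehicle and 364, 365 and 371 CPM per kb with glycine, with no overlap. The share taken by SLC39A14 was 34.5, 32.5 and 30.7% with vehicle and 25.1, 23.6 and 25.7% with glycine. Leaving SLC39A14 out, the sum was 299 ± 10.5 with vehicle and 276 ± 3.23 CPM per kb with glycine (SD, n = 3). In that remainder SLC39A7 alone went from 136 ± 6.07 to 115 ± 2.48 CPM per kb (SD, n = 3). The lower total thus rested mostly on SLC39A14 and SLC39A7. Of the 12 tested SLC39 genes, 8 had a log2 change below 0 and 4 above. Of all 15492 tested genes, 7625 were below 0 and 7867 above. SLC39A4 made up 11.1 ± 0.722% with vehicle and 14.3 ± 0.368% with glycine, and the level ratio of SLC39A14 to SLC39A4 went from 2.95 ± 0.369 to 1.73 ± 0.110 (SD, n = 3). Summed SLC30 levels were 48.6, 49.5 and 47.3 against 46.4, 42.9 and 47.1 CPM per kb, with every glycine library below every vehicle library by a narrow margin. The share of SLC30A1 in that sum was 36.7 ± 1.33% with vehicle and 33.1 ± 0.321% with glycine. These sums hold the genes chosen and are given without a test.

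**Figure D3:**
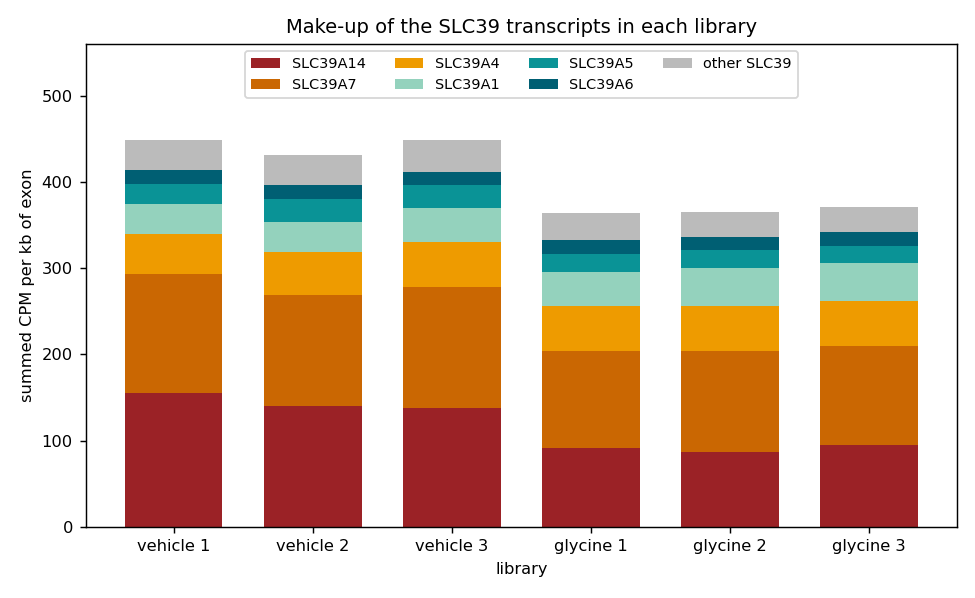
Stacked levels of the SLC39 transcripts in each of the 6 libraries, in summed CPM per kb of exon, with the axis starting at 0. The vehicle stacks reach 432 to 449 and the glycine stacks 364 to 371 CPM per kb, and the SLC39A14 segment at the base is shorter in each glycine library.

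The other 14 genes of both families remained once the 10 had been chosen with results known. Of these, 9 passed the filter on low counts, and 4 fell and 0 rose (edgeR adjusted p under 0.05), with 5 at an unadjusted p under 0.05, each of them lower, and with 0 called higher by DESeq2 or limma-voom either. Over all 15492 tested genes 6.54% fell, 6.71% rose and 4225 had an unadjusted p under 0.05. The median log2 change of the 9 genes was -0.24. SLC39A11, an intracellular zinc carrier, had the largest change of either family. It went from 39.6, 41.6 and 40.8 CPM to 25.1, 23.6 and 21.3 CPM, a log2 change of -0.80 ± 0.0733 (SE, edgeR adjusted p = 1.14e-05). SLC39A13, a carrier of the early secretory pathway tied to connective tissue disease, fell from 28.2 ± 2.59 to 21.5 ± 0.805 CPM (SD, n = 3, edgeR adjusted p = 0.00541). SLC30A7, which loads zinc into the Golgi, fell from 29.9 ± 1.12 to 23.7 ± 1.76 CPM (SD, n = 3, edgeR adjusted p = 0.00995). SLC39A7, which releases zinc from the endoplasmic reticulum, fell from 386 ± 17.3 to 327 ± 7.04 CPM (SD, n = 3, edgeR adjusted p = 0.0259). That last call was lost in 5 of 6 fits that left out a library, all but the one without vehicle replicate 2 (edgeR adjusted p = 0.0563 to 0.108). It was lost with the replicate number as a block too. SLC39A7 shares 8.58% of its exon length with RXRB on the other strand.

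The 5 tested genes that did not pass had edgeR adjusted p from 0.0602 to 0.828. SLC39A9, a carrier of the secretory pathway, was at 65.4, 72.2 and 65.1 CPM in vehicle and 63.9, 51.7 and 55.1 CPM in glycine libraries, and without glycine replicate 1 it passed (edgeR adjusted p = 0.0184). SLC30A6, the partner of SLC30A5, was at 45.8 ± 1.25 and 50.5 ± 3.69 CPM (SD, n = 3, edgeR adjusted p = 0.211). The log2 changes of SLC30A9, SLC30A3 and SLC39A3 were 0.06, 0.06 and -0.04. SLC39A3 and SLC39A9 share 9.58% and 5.23% of their exon length with other genes. The remaining 5 were too low to test. SLC30A8, the carrier of insulin granules, had 0 counts in the 6 libraries, SLC39A2 and SLC39A12 had 1 each, SLC30A2 had 13 and SLC30A4 had 23.

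**Figure D4:**
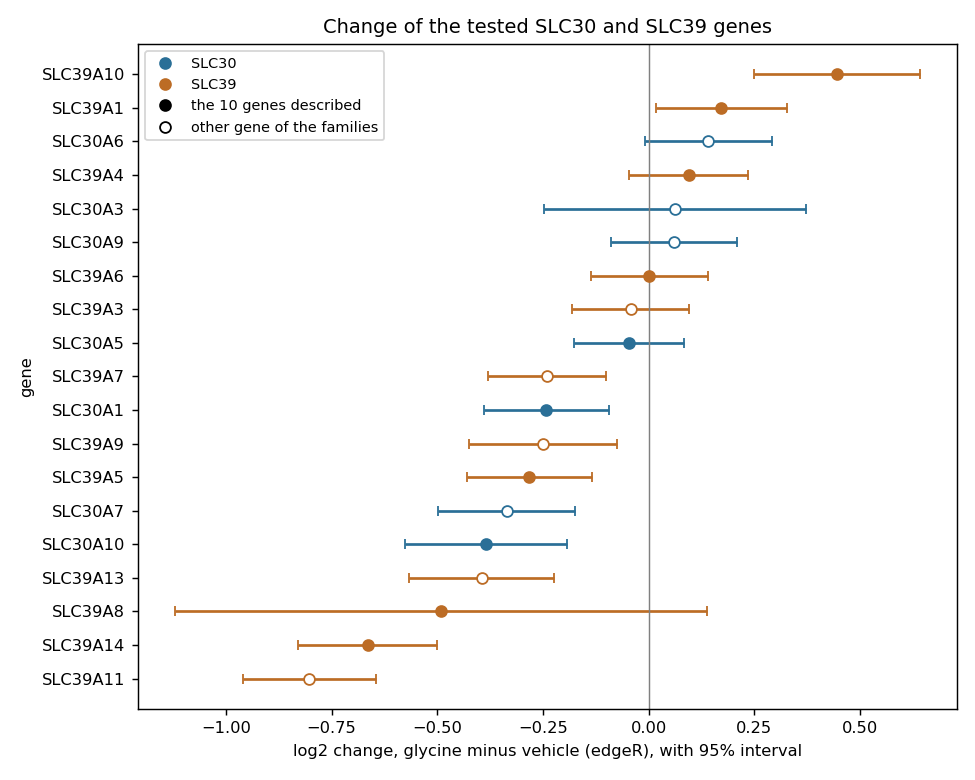
Log2 change from vehicle to glycine with its 95% interval (edgeR) for the 19 tested genes, SLC30 in blue and SLC39 in brown, with filled points for the 10 genes described and open points for the others. The changes run from 0.45 for SLC39A10 to -0.80 for SLC39A11, and the interval of SLC39A8 is the widest.

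Genes that bind, sense or otherwise handle zinc and manganese were taken from a list of 20, of which 16 were tested. Of these 5 fell, all metallothioneins, and 1 rose, beside 6.54% and 6.71% of all tested genes, and the median log2 change of the 16 was -0.07. MT1X fell by 1.22 on the log2 scale (edgeR adjusted p = 2.39e-07), MT1F by 1.04 (3.06e-06), MT1G by 0.92 (2.91e-06), MT1E by 0.71 (6.36e-06) and MT1M by 1.57 from a mean of 2.33 CPM (0.000619). These genes are near-identical copies, so reads could have been split among them. MT1X also shares 18.1% of its exon length with another gene on the same strand. MT2A, the most abundant metallothionein, did not pass, with 535 ± 23.2 CPM in vehicle and 490 ± 43.1 CPM in glycine libraries (SD, n = 3, edgeR adjusted p = 0.318). MT1A, the other tested metallothionein that did not pass, was at 2.83 ± 0.157 and 2.92 ± 0.235 CPM (SD, n = 3, edgeR adjusted p = 0.851). MTF1, named here after its values were seen, was at 13.4 ± 1.30 and 13.7 ± 1.27 CPM (SD, n = 3, edgeR adjusted p = 0.863). The riser was CP, the copper-binding ferroxidase ceruloplasmin, from 37.4 ± 2.85 to 51.2 ± 6.85 CPM (SD, n = 3, edgeR adjusted p = 0.00667), and 19.4% of its exon length overlaps HPS3. The transferrin receptor TFRC was at 399 ± 29.9 and 409 ± 28.6 CPM (SD, n = 3, edgeR adjusted p = 0.813).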

How the data were processed

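The authors deposited raw counts, as whole numbers of reads assigned to each gene, in 1 file per library, with exon length and coordinates for 57500 genes. Per the submitters' processing notes, the authors used Trimmomatic 0.36, STAR 2.5.2b and featureCounts of Subread 1.5.2 with GRCh38. The strand setting and annotation release were not given in the sources used here. Symbols were found for 56410 genes by gene ID, and 56898 gene IDs were shared with GENCODE 29.

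Genes were compared between groups in edgeR 4.0.16 under R 4.3.3 (quasi-likelihood F test, two-sided, group alone in the model, TMM scaling, default expression filter with a minimum count of 10 and total of 15). P-values were adjusted by Benjamini-Hochberg over 15492 genes, with a threshold of 0.05. Alternatives used DESeq2 1.42.0, limma 3.58.1 with voom, other scalings and filters, the replicate number as a block, and fits without each library in turn. On simulated counts for this comparison, 175 of 200 genes changed by a log2 change of 1 were recovered among 15492.

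The genes and lists were chosen with earlier results of these data known. All 10 genes are named, with every tested gene of both families. From the zinc and manganese list, the genes past the threshold, the 2 highest by CPM, MTF1 and MT1A are named.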

Additional observations from a re-analysis of the deposited data

How the results depend on the processing

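Alternatives covered scaling, filter, test, the replicate block and the fits without a library. Over these, the log2 change of each of the 10 genes moved by less than the spread between replicates in 139 of 139 values. Dropping 1 of 3 libraries can hardly move a group mean past that spread, so nothing is read from this count for those fits. SLC39A10 was the 1 gene called higher in each alternative. SLC39A8 could not be tested under the 1 CPM filter. When each library was left out in turn, 587 to 926 genes were called higher and 655 to 1010 lower, and 2 to 4 of the 10 genes were called lower. In those fits the log2 change ran from -0.036 to 0.21 for SLC30A3, -0.0031 to 0.12 for SLC30A9, -0.080 to 0.0013 for SLC39A3, -0.050 to 0.094 for MTF1 and -0.025 to 0.093 for TFRC, so that their sign turned, and the cause was not tested. SLC39A6, one of the 10 genes, also ran to both sides of 0, from -0.041 to 0.042. SLC39A9 passed with DESeq2 (adjusted p = 0.0387), without a filter (edgeR adjusted p = 0.0208) and with upper-quartile scaling (edgeR adjusted p = 0.0477). The runs on the zinc and manganese list were added after seeing the data. Libraries with the same replicate number did not deviate together (correlations of their deviations -0.0577 to -0.00258 over 3 pairs, against -0.198 to 0.214 for 6 pairs of different number). With the number as a replicate block, 866 genes were called higher and 918 lower, 1 and 3 of the 10, and SLC30A1 and SLC39A7 (edgeR adjusted p = 0.0551) were no longer called. Precision was limited by 3 libraries per group and, for SLC39A8, by under 40 counts per library.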
